A study of Homo sapiens with 9 samples.

Results

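The genes described here drive or brake the step from the G1 phase into DNA synthesis. They are the 3 D-type cyclin genes CCND1, CCND2 and CCND3, their kinases CDK4 and CDK6, the inhibitor genes CDKN1B, CDKN1C, CDKN2A and CDKN2B, and RB1, which encodes the retinoblastoma protein. They were taken by gene symbol from a deposited table of 60612 genes. All 10 symbols were found, each in 1 row. Of these 10 genes, 8 reached 1 FPKM in at least 3 of the 9 libraries and were tested among 12830 genes. CCND2 and CDK6 did not, and they were tested only in a fit with no filter. FPKM counts fragments per kilobase of transcript and is scaled for depth, so levels of different genes can be compared on it.

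VCaP, from which the RNA came, is an established line of human prostate cancer cells that expresses the androgen receptor and carries the TMPRSS2-ERG fusion. Transfection lasted 4 days and used a control siRNA, siRNA 1 against KMT2C or siRNA 2 against KMT2C, and each of these 3 groups has 3 libraries. KMT2C encodes a histone H3 lysine 4 methyltransferase that acts at enhancers, and the labels call it normal in the control cells and knocked down in the others. All groups share the cell line and the transfection. Which sequences the siRNAs had is not stated. Nothing says that the replicates were separate cultures, so p-values measure only the spread between these libraries, which may be technical.

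D-type cyclins are made when growth signals, in prostate cells also androgens, reach the cell. They bind CDK4 or CDK6, and these kinases phosphorylate the retinoblastoma protein, which then releases E2F transcription factors that switch on genes for DNA synthesis. The INK4 inhibitors, among them the products of CDKN2A and CDKN2B, bind CDK4 and CDK6 and keep them from the cyclins. The CIP/KIP inhibitors p27 (CDKN1B) and p57 (CDKN1C) bind whole cyclin-kinase complexes, above all those of CDK2.

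Library totals were 58462215 to 70726213 estimated counts, close to 4 counts for each sequenced fragment, with 24406 to 25318 genes above 0. KMT2C was at 12.9 ± 0.806 FPKM in control cells (SD, n = 3), at 1.87 ± 0.375 after siRNA 1 and at 1.69 ± 0.0488 after siRNA 2. The 2 siRNA groups together differed from control with p = 0.0119 by exact permutation (2-sided), as small as 84 splits can give. All 10 marker genes of VCaP cells were tested, and their summed level was 1766 to 1858 FPKM in control libraries, 931 to 947 after siRNA 1 and 959 to 978 after siRNA 2. KLK2 alone reached 848 FPKM, so the sum does not show how each of the 10 genes changed. Of the T cell and B cell markers, CD3D, CD3E, CD2 and MS4A1 had 0 counts in every library, endothelial markers summed to at most 0.361 FPKM and fibroblast markers to at most 1.02. Myeloid markers, mostly CD14, summed to 0.648 to 1.41 FPKM in control libraries, 1.57 to 1.95 after siRNA 1 and 1.49 to 2.52 after siRNA 2, and neuroendocrine markers to 2.31 to 2.84, 1.77 to 2.498 and 3.11 to 3.79. In bulk RNA, fewer cells that express a gene and less RNA per cell cannot be told apart.

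In control cells the levels of the 10 genes covered a wide range. CCND1 stood alone at the top with 223 ± 11.9 FPKM (SD, n = 3), rank 104 among the tested genes. CDKN1B (38.0 ± 0.690 FPKM) and CDK4 (37.8 ± 6.98 FPKM) followed, and their library ranges overlapped. RB1 came next at 5.33 ± 0.600 FPKM, clear of both neighbours. CCND3 (2.65 ± 1.42 FPKM), CDKN2B (1.48 ± 0.260), CDKN2A (1.00 ± 0.249) and CDKN1C (0.961 ± 0.118) formed a low group in which each range overlapped the next. CDK6 (0.0598 ± 0.0272 FPKM) and CCND2 (0.0174 ± 0.0176) were lowest. Control cells had 1 main D-type cyclin mRNA, CCND1, with 98.8% of the summed FPKM of the 3 cyclins, and 1 main kinase mRNA, CDK4, with 99.8% of the summed FPKM of both kinases. After siRNA 1 those shares were 98.1% and 99.9%, and after siRNA 2 they were 98.3% and 99.9%.

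**Figure D1:**
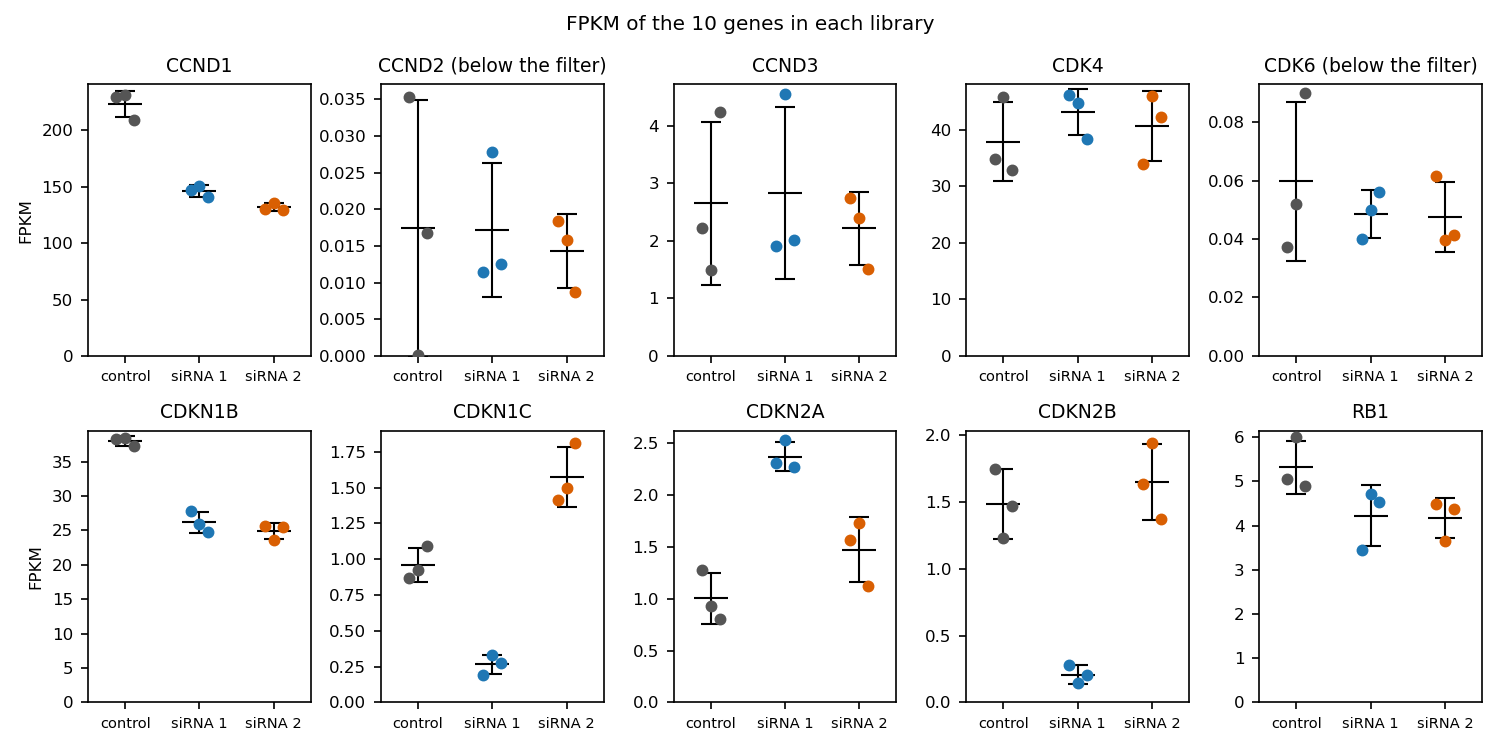
FPKM of each of the 10 genes (vertical axes, each from 0 on its own scale) in the 3 libraries of each group (points), with the group mean and SD (bars). CCND1 and CDKN1B are lower with both siRNAs, CDKN2B and CDKN1C are lowest after siRNA 1, and CDK4, CCND3, CCND2 and CDK6 overlap between groups.

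The comparison of each siRNA with control asks how these genes changed with that siRNA. The direct comparison of both siRNAs asks whether they did the same. A change with only 1 siRNA may be particular to its sequence, which was not tested. CCND1 and CDKN1B fell with each siRNA. CDKN2B and CDKN1C fell after siRNA 1 and CDKN2A rose with it, whereas after siRNA 2 CDKN2B did not pass the test and CDKN1C was higher. Changes are edgeR log2 fold changes ± SE, and a call is a Benjamini-Hochberg adjusted p under 0.05 over all 12830 genes in its quasi-likelihood test. After siRNA 1, 1 of the 8 tested genes was higher and 4 were lower, where 21.2% and 20.5% of all genes were called in those directions. Their median log2 change was -0.46 against 0.01 over all genes. After siRNA 2, 1 was higher and 3 were lower, where 24.4% and 24.9% of all genes were called, and the median was -0.14 against 0.02. Called lower with both were 2 of the 8, where 12.6% of all genes were, and 0 were called higher with both, where 13.2% were. That count of 0 in edgeR was also 0 in DESeq2 and in limma, and at an unadjusted p under 0.05 it was 1, CDKN2A. It was also 1, CDKN2A again, in the 4 alternatives in which that gene passed after siRNA 2. Both siRNA comparisons use the same control libraries.

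**Figure D2:**
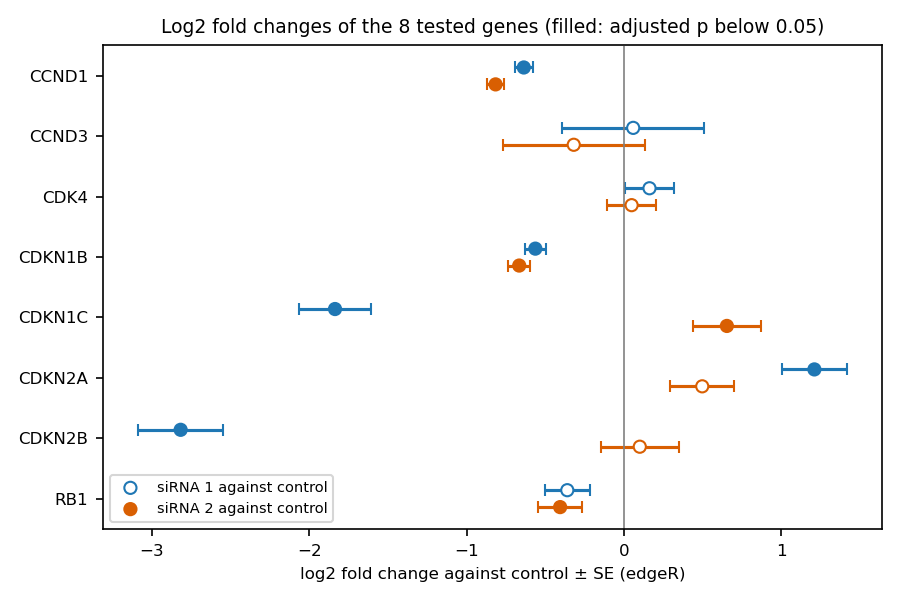
Log2 fold change against control ± SE (horizontal axis, edgeR) of the 8 tested genes after siRNA 1 (blue) and siRNA 2 (orange), filled where the adjusted p was below 0.05. CCND1 and CDKN1B lie left of 0 with both siRNAs, and the colours lie far apart for CDKN2B and CDKN1C.

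CCND1 (ENSG00000110092, GRCh38 chromosome 11, 69641156 to 69654474, plus strand) encodes cyclin D1. The control libraries had 229, 231 and 209.6 FPKM of it, against 147, 151 and 141 after siRNA 1 and 129.9, 136 and 129.8 after siRNA 2. No range overlapped another, with control highest and siRNA 2 lowest. The log2 change was -0.64 ± 0.06 after siRNA 1, a 1.55-fold lower level (edgeR adjusted p = 6.20e-05), and -0.82 ± 0.06 after siRNA 2, 1.76-fold lower (edgeR adjusted p = 7.28e-06). Both falls held in each of the 19 alternative settings. CCND1 was 0.18 ± 0.06 higher after siRNA 1 than after siRNA 2 (edgeR adjusted p = 0.0309), a difference that lost its call in 9 of 19 settings. Among these were the fits without siRNA 1 replicate 2 (0.17) and without siRNA 2 replicate 1 (0.16), replicate 2 (0.19) or replicate 3 (0.16), and adjusted p over all settings ran from 0.0158 to 0.114. Of the exonic bases of CCND1, 10.3% are shared with LTO1 on the other strand, a gene with far fewer counts. The summed VCaP markers were also lower with both siRNAs, by the ranges given above, and their part in the fall of CCND1 was not tested.

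The other D-type cyclins were scarce. CCND3 (ENSG00000112576, chromosome 6, 41934934 to 42050357, minus strand) encodes cyclin D3, which matters most in lymphocytes. It was at 2.23, 1.50 and 4.24 FPKM in control cells, 1.91, 4.55 and 2.02 after siRNA 1, and 2.73, 2.40 and 1.51 after siRNA 2. Control replicate 3 and siRNA 1 replicate 2 stood above the other 7 libraries, and all groups overlapped. The log2 changes of 0.06 ± 0.45 after siRNA 1 and -0.32 ± 0.45 after siRNA 2 did not pass (edgeR adjusted p = 0.930 and 0.595), and their SEs leave the direction unsettled. CCND2 (ENSG00000118971, chromosome 12, 4269771 to 4305350, plus strand) encodes cyclin D2. It had 20, 0 and 12 counts in control libraries, 8, 18 and 8 after siRNA 1, and 12, 11 and 6 after siRNA 2, at most 0.0353 FPKM. That is 5 fragments or fewer per library, so a change could not be detected at this depth.

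Of the kinases, CDK4 (ENSG00000135446, chromosome 12, 57747727 to 57756013, minus strand) carried nearly all the signal. It was at 34.8, 45.8 and 32.9 FPKM in control cells, 46.0, 44.8 and 38.4 after siRNA 1, and 33.9, 46.0 and 42.2 after siRNA 2. The groups overlapped, with one high library among the control replicates. The log2 change was 0.16 ± 0.16 after siRNA 1 and 0.05 ± 0.16 after siRNA 2 (edgeR adjusted p = 0.437 and 0.822). CDK4 shares 43.2% of its exonic bases with TSPAN31 on the opposite strand, and whether the counting used strand is not given in the sources used here. TSPAN31, a tetraspanin gene, was far lower than CDK4, at 1.93 to 4.18 FPKM in control cells, 1.68 to 2.00 after siRNA 1 and 1.81 to 2.20 after siRNA 2. CDK6 (ENSG00000105810, chromosome 7, 92604921 to 92836573, minus strand) encodes the other kinase of D-type cyclins. Its level was 0.0374, 0.0520 and 0.0900 FPKM in control cells, 0.0400, 0.0498 and 0.0562 after siRNA 1, and 0.0614, 0.0398 and 0.0414 after siRNA 2. These are 32 to 93 counts per library and the groups overlapped. In an edgeR fit with no filter neither CDK6 (adjusted p = 0.721 after siRNA 1 and 0.542 after siRNA 2) nor CCND2 (1.00 and 0.947) passed.

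CDKN1B (ENSG00000111276, chromosome 12, 12715058 to 12722369, plus strand) encodes p27, a brake on cyclin E-CDK2 that also helps cyclin D bind its kinase. The control libraries had 38.3, 38.5 and 37.2 FPKM, those after siRNA 1 had 27.8, 25.9 and 24.7, and those after siRNA 2 had 25.6, 23.6 and 25.5. Every knockdown library lay below every control library, and the 2 knockdown groups overlapped. The log2 change was -0.56 ± 0.07 after siRNA 1, 1.48-fold lower (edgeR adjusted p = 3.32e-04), and -0.67 ± 0.07 after siRNA 2, 1.59-fold lower (edgeR adjusted p = 7.37e-05). The siRNAs differed by 0.10 ± 0.07, which did not pass (edgeR adjusted p = 0.273). These 3 outcomes were the same under all 19 alternatives. The ratio of CCND1 to CDKN1B in FPKM was 5.87 ± 0.210 in control cells, 5.60 ± 0.285 after siRNA 1 and 5.31 ± 0.399 after siRNA 2 (SD, n = 3), with overlapping ranges. The ratio of CCND1 to CDK4 was 6.00 ± 0.839, 3.41 ± 0.237 and 3.29 ± 0.479 in the same order, and the control ratios all lay above the others.

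CDKN1C (ENSG00000129757, chromosome 11, 2883213 to 2885771, minus strand) encodes p57 and is imprinted, being read mainly from the maternal chromosome. It was at 0.867, 0.922 and 1.09 FPKM in control cells, at 0.193, 0.328 and 0.274 after siRNA 1, and at 1.41, 1.50 and 1.81 after siRNA 2. No groups overlapped: the siRNA 1 libraries lay below control and the siRNA 2 libraries above it. It fell by 1.84 ± 0.23 on the log2 scale after siRNA 1, 3.57-fold lower (edgeR adjusted p = 3.70e-04), a call kept in all 18 alternatives that tested it. After siRNA 2 it rose by 0.65 ± 0.22, 1.57-fold higher (edgeR adjusted p = 0.0334), but 5 of 18 alternatives lost that call, with adjusted p between 0.00608 and 0.106. They were the fit with no filter (0.62) and those without control replicate 1 (0.57), control replicate 2 (0.62), siRNA 2 replicate 2 (0.70) or siRNA 2 replicate 3 (0.55). The siRNAs differed by -2.49 ± 0.23 (edgeR adjusted p = 6.94e-05). The siRNA 1 values rest on 41 to 67 counts, or 10 to 17 fragments, per library, and the gene passed the filter mainly through the siRNA 2 libraries. Even so, p57 mRNA was a small part of this pair: CDKN1B held 97.5% of the summed FPKM of CDKN1B and CDKN1C in control cells, 99.0% after siRNA 1 and 94.0% after siRNA 2.

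CDKN2A and CDKN2B lie side by side on chromosome 9 and encode INK4 inhibitors. CDKN2A (ENSG00000147889, 21967753 to 21994873, minus strand) gives p16 and, from another first exon, p14ARF, which protects p53. The deposited values are per gene, so these transcripts cannot be separated. CDKN2B (ENSG00000147883, 22002903 to 22009305, minus strand) gives p15, a target of TGF-beta signalling. The long RNA CDKN2B-AS1 runs across both on the plus strand and shares 7.88% of the exonic bases of CDKN2A.

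The bases upstream of the outer start of each gene are shown because these neighbours, whose starts face the same way, moved apart after siRNA 1. They are RefSeq sequence of GRCh38.p14 on the minus strand, 5′ to 3′, and capitals mark GC boxes, GGGCGG or CCGCCC, the motif bound by SP1. RefSeq start windows were found for 7 of the 10 genes, and bases within exons of the gene itself are left out. The CDKN2A stretch, chr9:21995325-21995574, ends just before the RefSeq start of the p14ARF first exon, beyond the end the deposited table gives for the gene. It covers an exon of AL449423.1 and introns of CDKN2B-AS1 and AL359922.1, all on the plus strand. The CDKN2B stretch, chr9:22009364-22009555, lies in introns of CDKN2B-AS1 and AL359922.1.
CDKN2A: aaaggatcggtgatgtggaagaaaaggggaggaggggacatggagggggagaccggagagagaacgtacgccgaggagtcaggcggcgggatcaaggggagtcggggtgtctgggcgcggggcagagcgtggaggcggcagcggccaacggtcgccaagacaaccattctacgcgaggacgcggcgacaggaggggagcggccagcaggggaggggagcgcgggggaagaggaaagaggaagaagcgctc
CDKN2B: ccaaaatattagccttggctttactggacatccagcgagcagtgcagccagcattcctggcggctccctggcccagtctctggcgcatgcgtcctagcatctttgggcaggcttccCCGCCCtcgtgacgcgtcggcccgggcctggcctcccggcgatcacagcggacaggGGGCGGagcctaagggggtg
A search found 0 GC boxes in the 250 bases shown for CDKN2A and 2 in the 192 bases shown for CDKN2B, 1 on each strand. A second RefSeq window of CDKN2A, chr9:21974858-21975107, holds 1 GC box. It is not shown because 241 of its 250 bases lie in exons of the gene itself. Of 35116 RefSeq windows of 250 bases before a start, 42.6% hold at least 1. A match is a description of the letters only.

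CDKN2B was at 1.75, 1.23 and 1.47 FPKM in control cells, at 0.279, 0.142 and 0.203 after siRNA 1, and at 1.63, 1.94 and 1.37 after siRNA 2. The siRNA 1 libraries lay far below all others, and control and siRNA 2 overlapped. It fell by 2.82 ± 0.27 on the log2 scale after siRNA 1, 7.04-fold lower (edgeR adjusted p = 1.02e-04), on 46 to 93 counts, or 12 to 23 fragments, per library. The gene passed the filter only through the control and siRNA 2 libraries, where it was higher. After siRNA 2 the change was 0.10 ± 0.25 (edgeR adjusted p = 0.766). The difference between the siRNAs was -2.92 ± 0.27 (edgeR adjusted p = 6.94e-05). The fall after siRNA 1 and this difference held in all 18 alternatives that tested the gene.

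CDKN2A moved the other way after siRNA 1. It was at 1.28, 0.930 and 0.801 FPKM in control cells, at 2.31, 2.53 and 2.28 after siRNA 1, and at 1.57, 1.73 and 1.13 after siRNA 2. The siRNA 1 libraries were the 3 highest, and siRNA 2 overlapped control. Of the control libraries only replicate 1 reached 1 FPKM, so CDKN2A passed the filter mainly through the siRNA libraries. The rise after siRNA 1 was 1.21 ± 0.20, 2.31-fold (edgeR adjusted p = 0.00177), and it held in all 18 alternatives. After siRNA 2 the change was 0.50 ± 0.20 and missed the threshold (edgeR adjusted p = 0.0722). It passed in 4 of 18 alternatives, among them upper quartile scaling (0.59) and the fits without control replicate 1 (0.69) or siRNA 2 replicate 3 (0.66), with adjusted p from 0.0243 to 0.211 over all alternatives. The siRNAs differed by 0.71 ± 0.20 (edgeR adjusted p = 0.0223), a call lost without siRNA 1 replicate 2 (0.67) and without siRNA 2 replicate 3 (0.55), with adjusted p from 0.00443 to 0.0681 over the alternatives.

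Summed over both neighbours, the level was 2.49 ± 0.474 FPKM in control cells, 2.58 ± 0.0978 after siRNA 1 and 3.12 ± 0.589 after siRNA 2 (SD, n = 3), and the ranges overlapped. What differed was the mixture: CDKN2A made up 40.2% ± 4.31 of that sum in control cells, 91.9% ± 2.73 after siRNA 1 and 47.1% ± 1.98 after siRNA 2. The summed level of the 3 basal epithelial markers, of which 1 was tested, differed between all groups. It was 2.37 to 2.63 FPKM in control cells, 6.27 to 7.86 after siRNA 1 and, below control, 0.719 to 0.886 after siRNA 2. KRT14 alone reached 7.84 FPKM, nearly all of the highest sum. The part of these markers in the CDKN2A and CDKN2B values was not tested.

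The other CDK inhibitor genes, which are not part of the set, gave most of their calls after siRNA 2. Of 4 tested, 0 were higher and 1 was lower after siRNA 1, and 0 were higher and 3 were lower after siRNA 2. The same calls were made for 21.2%, 20.5%, 24.4% and 24.9% of all genes. Medians were -0.23 and -1.54 on the log2 scale, against 0.01 and 0.02 over all genes. Both counts of 0 in edgeR were also 0 at an unadjusted p under 0.05 and in DESeq2 and limma. CDKN2D, which encodes the INK4 protein p19, was at 16.4, 16.7 and 13.6 FPKM in control cells, 11.6, 10.8 and 8.34 after siRNA 1, and 2.49, 2.16 and 2.08 after siRNA 2. It fell with both, with log2 changes of -0.63 ± 0.15 and -2.85 ± 0.16 (edgeR adjusted p = 0.00939 and 2.49e-06), and the siRNAs differed by 2.22 ± 0.16 (edgeR adjusted p = 1.51e-05). CDKN2C, the INK4 gene for p18, had 0.03 ± 0.10 after siRNA 1 and fell by 1.10 ± 0.11 after siRNA 2 (edgeR adjusted p = 0.867 and 5.18e-05). CDKN1A, the p53 target that encodes p21, was at 31.4 to 33.0 FPKM in control cells, 21.1 to 29.3 after siRNA 1 and 6.34 to 9.66 after siRNA 2. Its change was -0.39 ± 0.16 after siRNA 1 and a fall by 1.99 ± 0.17 after siRNA 2 (edgeR adjusted p = 0.0869 and 2.47e-05). In DESeq2 (-0.41, adjusted p = 0.0463) and without siRNA 2 replicate 3 (-0.39, edgeR adjusted p = 0.0268) CDKN1A also passed after siRNA 1, which makes 2 of the 4 lower. CDKN3, a phosphatase gene of CDK2, passed with neither siRNA (-0.08 and -0.01). The 4 INK4 genes summed to 32.0 ± 2.77 FPKM in control cells, 27.2 ± 3.43 after siRNA 1 and 12.1 ± 0.567 after siRNA 2 (SD, n = 3).

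**Figure D3:**
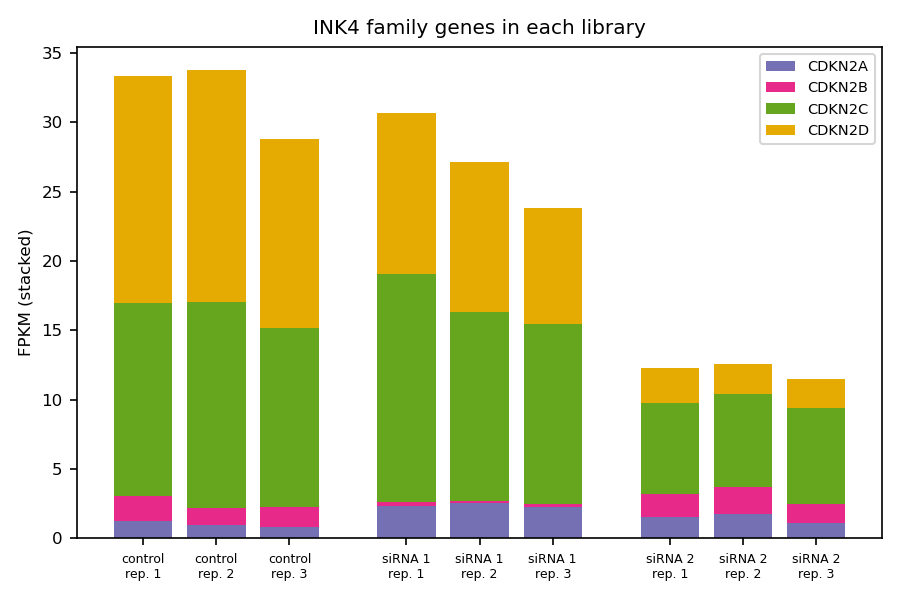
FPKM of the 4 INK4 genes stacked for each library (vertical axis from 0, 1 bar per library). CDKN2C and CDKN2D make up most of each bar, the CDKN2B layer is thin after siRNA 1, and the bars after siRNA 2 are the shortest, at a mean of 12.1 FPKM.

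RB1 (ENSG00000139687, chromosome 13, 48303744 to 48599436, plus strand) encodes the protein that the D-type cyclin kinases inactivate. It was at 5.06, 6.01 and 4.91 FPKM in control cells, at 3.44, 4.71 and 4.53 after siRNA 1, and at 4.48, 3.66 and 4.39 after siRNA 2. All knockdown libraries lay below all control libraries, by as little as the gap between 4.71 and 4.91 FPKM. The log2 change was -0.36 ± 0.14 after siRNA 1 (edgeR adjusted p = 0.0720) and -0.41 ± 0.14 after siRNA 2 (edgeR adjusted p = 0.0415). The siRNA 2 call was lost in 11 of 18 alternatives, among them the fits without any 1 control library (-0.46, -0.31 and -0.46 without replicate 1, 2 and 3) and without any 1 siRNA 2 library (-0.45, -0.30 and -0.43), with adjusted p from 0.0181 to 0.146. DESeq2 called RB1 after siRNA 1 too (-0.37, adjusted p = 0.0402, where the alternatives ran from 0.0402 to 0.211). The siRNAs differed by 0.05 ± 0.14 (edgeR adjusted p = 0.832).

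Compared directly, 2 of the 8 tested genes were higher after siRNA 1 than after siRNA 2 (CCND1 and CDKN2A) and 2 were lower (CDKN1C and CDKN2B), where 20.6% and 18.9% of all genes were called. CDKN1C and CDKN2B kept that call in every alternative that tested them. CCND3, CDK4, CDKN1B and RB1 did not pass, with log2 differences of 0.38 ± 0.45, 0.11 ± 0.16, 0.10 ± 0.07 and 0.05 ± 0.14.

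For the genes called with both siRNAs, the most similar profiles over the 9 libraries were sought among all protein-coding genes tested, by Pearson r of log2 CPM (counts scaled to library size). ALDH1A3, a retinoic acid synthesis enzyme gene, was most like CCND1 (r = 0.995), followed by the kinase gene PIM1 (r = 0.994). ALDH1A3 was at 8.78 FPKM in control cells, 2.25 after siRNA 1 and 1.74 after siRNA 2, and PIM1 at 28.3, 15.8 and 12.9 FPKM. CD2AP, an actin adaptor gene, was most like CDKN1B (r = 0.986), at 18.5, 14.7 and 14.1 FPKM, followed by the growth factor gene PDGFA (r = 0.986), at 3.58, 2.37 and 2.12 FPKM. These r values are descriptions: they are the highest among all genes compared and rest on 3 group means.

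The next kinase after CDK4 is CDK2, with cyclin E. Of 7 tested genes in this list, 3 were higher and 0 lower after siRNA 1, and 2 higher and 3 lower after siRNA 2 (medians 0.23 and -0.23). Among all genes, 21.2%, 20.5%, 24.4% and 24.9% were called in the same order. CCNH and CDK7, parts of the kinase that activates CDKs, rose by 0.46 ± 0.12 and 0.32 ± 0.10 after siRNA 1 and by 0.90 ± 0.12 and 0.48 ± 0.10 after siRNA 2. Without control replicate 1 or without control replicate 2 neither passed after siRNA 1 (CCNH 0.41 and 0.40, CDK7 0.29 and 0.30), which leaves 1 gene higher. CDK7 also lost its siRNA 1 call without control replicate 3 (0.34), siRNA 1 replicate 1 (0.26) or siRNA 1 replicate 3 (0.31). CDC25A, a phosphatase gene that activates CDK2, rose by 0.39 ± 0.09 after siRNA 1 and had -0.23 ± 0.09 after siRNA 2, which did not pass. CCNE2, a cyclin E gene, was at 11.7 to 13.9 FPKM in control cells, 11.9 to 13.3 after siRNA 1 and 6.50 to 7.39 after siRNA 2. It had -0.08 ± 0.09 after siRNA 1 and fell by 0.94 ± 0.09 after siRNA 2 (edgeR adjusted p = 0.498 and 5.54e-05). CDK2 and CCNE1, chosen after their values were seen, also changed after siRNA 2, by -0.53 ± 0.10 and -0.62 ± 0.21, and the call of CCNE1 was lost without any 1 control library (-0.68, -0.67 and -0.52), without siRNA 2 replicate 1 (-0.50) or 2 (-0.52) and under upper quartile scaling (-0.52). The 0 lower with siRNA 1 in edgeR was also 0 at an unadjusted p under 0.05 and in DESeq2 and limma.

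Partners of the retinoblastoma protein gave calls in both directions. Of 12 RB relatives, E2F and DP factors, 2 were higher and 1 lower after siRNA 1, and 2 higher and 3 lower after siRNA 2 (medians 0.01 and -0.10). The same calls were made for 21.2%, 20.5%, 24.4% and 24.9% of all genes. E2F3, an activating E2F, was at 13.1 to 14.7 FPKM in control cells, 19.4 to 21.6 after siRNA 1 and 29.7 to 30.6 after siRNA 2. It rose by 0.50 ± 0.07 and 1.03 ± 0.07 (edgeR adjusted p = 5.06e-04 and 5.86e-06). E2F1, also activating, had -0.13 ± 0.06 after siRNA 1 and fell by 0.44 ± 0.06 after siRNA 2. E2F2, chosen after its values were seen, had -0.02 ± 0.08 and fell by 1.08 ± 0.08 after siRNA 2 (edgeR adjusted p = 1.07e-05). TFDP2, an E2F partner gene, had -0.16 and rose by 0.20 after siRNA 2, and E2F4, a repressive E2F, had 0.15 and fell by 0.25 after siRNA 2. The siRNA 1 change of TFDP2 missed the threshold (edgeR adjusted p = 0.0535). It passed in DESeq2 (-0.17, adjusted p = 0.0195) and under RLE scaling (-0.17, edgeR adjusted p = 0.0412), which makes 2 lower after siRNA 1. The siRNA 2 calls of TFDP2 and E2F4 were near the threshold (edgeR adjusted p = 0.0160 and 0.0359) and were lost without control replicate 1, where their log2 changes were 0.19 and -0.28. That of E2F4 was also lost without control replicate 2 (-0.26) or 3 (-0.22), without siRNA 2 replicate 1 (-0.18) or 2 (-0.23) and under upper quartile scaling (-0.15). The other calls of this list after siRNA 1, named once seen, were TFDP1, an E2F partner gene (0.64), and the RB relative RBL2 (-0.19), whose call was lost in 9 of 13 other fits.

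Genes that E2F switches on for DNA synthesis differed between the siRNAs. Of 18 tested, 7 were higher and 0 lower after siRNA 1, and 1 higher and 10 lower after siRNA 2, with medians of 0.18 and -0.34. Of all genes, 21.2% and 20.5% were called in these directions after siRNA 1 and 24.4% and 24.9% after siRNA 2. Under upper quartile scaling 3 were higher and 9 lower after siRNA 2. Compared directly, 14 were higher after siRNA 1 than after siRNA 2 and 2 were lower, where 20.6% and 18.9% of all genes were called, with a median difference of 0.49. In the other scalings and each leave-one-out fit between 12 and 14 were higher in that comparison, but the 7 after siRNA 1 became 3 without control replicate 3 and 4 without siRNA 1 replicate 3. Against control, only 4 of the 18 were called in opposite directions with the siRNAs, and 1 was higher with both. MYBL2, a transcription factor gene, was at 47.2 to 53.2 FPKM in control cells, 67.6 to 72.4 after siRNA 1 and 35.4 to 36.1 after siRNA 2, with no overlap. It rose by 0.44 ± 0.06 after siRNA 1 and fell by 0.57 ± 0.06 after siRNA 2 (edgeR adjusted p = 5.14e-04 and 7.37e-05). CDC6, which loads the replicative helicase, rose by 0.43 ± 0.11 and fell by 0.57 ± 0.11, and POLA1, of DNA polymerase alpha, rose by 0.30 ± 0.06 and fell by 0.19 ± 0.06. The siRNA 1 call of CDC6 was lost without control replicate 3 (0.35) or siRNA 1 replicate 3 (0.38). The siRNA 2 call of POLA1 was lost without control replicate 1 (-0.19) or 2 (-0.17), without any 1 siRNA 2 library (-0.20, -0.17 and -0.19) and under upper quartile scaling (-0.10). After siRNA 1 the 0 lower in edgeR was 0 in DESeq2 and limma and 1 at an unadjusted p under 0.05. That count was also 1 without control replicate 3, where CCNA2 passed as lower (-0.23, edgeR adjusted p = 0.0220).

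**Figure D4:**
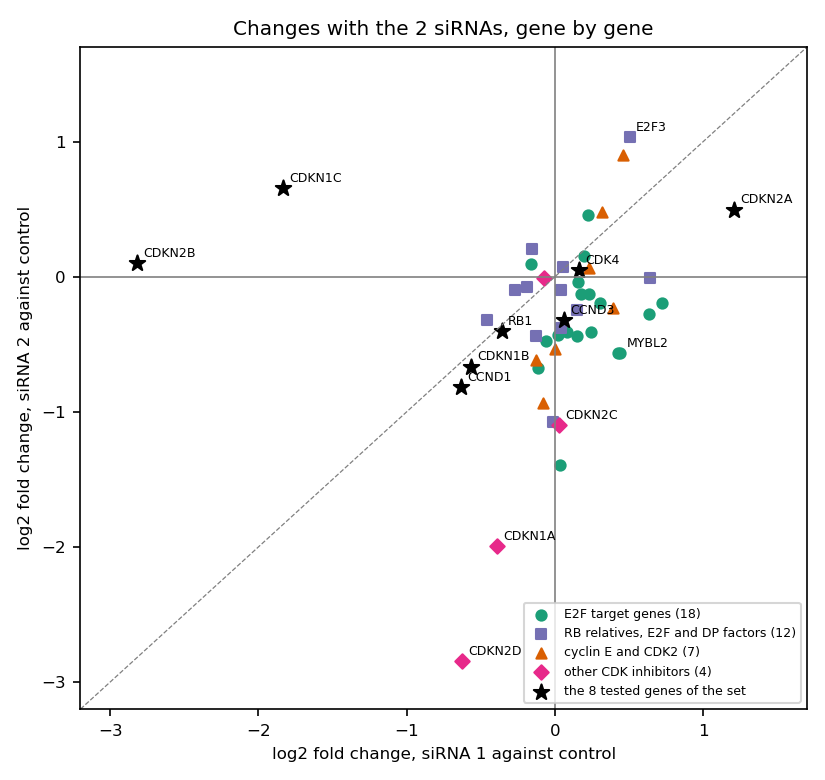
Log2 fold change against control after siRNA 1 (horizontal axis) and siRNA 2 (vertical axis) of the 8 tested genes and 4 related lists, with equality as a dashed line. Both axes share the control libraries. CDKN2B and CDKN1C lie far to the left, CDKN2D and CDKN1A far down, and most E2F target genes lie below the dashed line.

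Genes that control the turnover of D-type cyclins and of p27 moved both ways. Of 13 tested, 5 were higher and 2 lower after siRNA 1, and 6 higher and 5 lower after siRNA 2 (medians 0.11 and 0.09). Among all genes, 21.2%, 20.5%, 24.4% and 24.9% were called in the same order. Besides the genes described next, and named once seen, SKP2 and FBXW7 were higher with both, CDC37 was higher after siRNA 2, GSK3B was lower after siRNA 1, and SKP1, RBX1, FBXO31 and RNF123 were lower after siRNA 2. FBXW7 passed the filter only through the siRNA 2 libraries, and its siRNA 1 call (0.34) was lost under RLE scaling (0.33), without any 1 control library (0.26, 0.39 and 0.36) and without siRNA 1 replicate 1 (0.30) or 2 (0.32). SKP2 lost its call after siRNA 1 without control replicate 1 (0.31) or 3 (0.34) or siRNA 1 replicate 2 (0.31) or 3 (0.30), and after siRNA 2 without control replicate 1 (0.34) or 3 (0.36) or siRNA 2 replicate 1 (0.34) or 3 (0.39). RBX1 lost its call without control replicate 3 (-0.39) or siRNA 2 replicate 3 (-0.40), and FBXO31 lost its own under upper quartile scaling (-0.19), without control replicate 3 (-0.20) and without any 1 siRNA 2 library (-0.32, -0.26 and -0.25). The 5 higher after siRNA 1 became 2 without control replicate 1 or control replicate 3 and 3 without siRNA 1 replicate 2, and the 5 lower after siRNA 2 became 3 without control replicate 3 or siRNA 2 replicate 3. FBXO4, an F-box gene linked to cyclin D1 turnover, was at 1.78 to 1.93 FPKM in control cells, 3.29 to 3.56 after siRNA 1 and 3.09 to 3.33 after siRNA 2, and rose by 0.87 ± 0.09 and 0.75 ± 0.09. UBAC1, part of a ubiquitin ligase for p27, rose by 0.59 ± 0.10 and 0.99 ± 0.10, and CUL1, a ligase scaffold gene, by 0.24 ± 0.06 and 0.27 ± 0.06. AMBRA1, whose product targets D-type cyclins for breakdown, fell with both (-0.32 ± 0.07 and -0.86 ± 0.07). The siRNA 1 call of CUL1 was lost without control replicate 1 (0.22) and without control replicate 3 (0.21).

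Neighbours of the 10 genes were called in both directions. Of 14 symbols 12 were in the table and 7 were tested, with 2 higher and 1 lower after siRNA 1 and 1 higher and 1 lower after siRNA 2 (medians 0.25 and 0.27), where 21.2%, 20.5%, 24.4% and 24.9% of all genes were called. KCNQ1, which lies beside CDKN1C in its imprinted region, rose by 0.37 ± 0.11 and 0.39 ± 0.11, and both calls were lost without control replicate 1 (0.34 and 0.36) or control replicate 2 (0.32 and 0.34), the siRNA 1 call also without siRNA 1 replicate 2 (0.33) or 3 (0.34). TSPAN31 fell by 0.76 ± 0.24 after siRNA 1 and had -0.63 ± 0.24 after siRNA 2, with control replicate 1 the highest library, and without it the siRNA 1 change of -0.47 did not pass. Nor did it pass without control replicate 3 (-0.78) or any 1 siRNA 1 library (-0.73, -0.71 and -0.84). The siRNA 2 change of TSPAN31 missed the threshold (edgeR adjusted p = 0.0524). It passed in DESeq2 (-0.65, adjusted p = 0.0210) and without control replicate 2 (-0.87, edgeR adjusted p = 0.00470). ITM2B, next to RB1, had 0.07 ± 0.06 and fell by 0.28 ± 0.06 after siRNA 2. LPAR6, which lies inside RB1 on the other strand, passed with neither siRNA (0.89 ± 0.59 and 0.76 ± 0.58). MTAP, a neighbour of CDKN2A that was picked after its values were seen, increased by 1.11 ± 0.31 after siRNA 1, where replicate 1 had 3.10 FPKM against 1.39 and 1.29 in the others, and had 0.27 ± 0.31 after siRNA 2. That call was lost without control replicate 1 (1.04) or control replicate 2 (1.09).

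General proliferation markers gave no common direction. Of 8 tested, 1 was higher and 2 were lower after siRNA 1, and 2 were higher and 2 lower after siRNA 2 (medians -0.05 and 0.05). Among all genes, 21.2%, 20.5%, 24.4% and 24.9% were called in the same order. PLK1, a mitotic kinase gene, fell with both (-0.33 ± 0.06 and -0.32 ± 0.06). BUB1, a spindle checkpoint gene, fell by 0.32 ± 0.07 after siRNA 1 and rose by 0.42 ± 0.07 after siRNA 2, whereas CENPF, a kinetochore gene, increased by 0.21 ± 0.06 and 0.78 ± 0.06. MKI67, which encodes Ki-67, had 0.25 ± 0.23 after siRNA 1 and fell by 0.78 ± 0.23 after siRNA 2, and control replicate 1 stood high at 49.4 FPKM against 28.2 and 27.03. Without that library MKI67 passed after siRNA 1 (0.57), and without siRNA 2 replicate 1 (-0.71) or replicate 3 (-0.68) its siRNA 2 call was lost. The siRNA 1 call of CENPF was lost without control replicate 1 (0.20), control replicate 3 (0.16) or siRNA 1 replicate 3 (0.16).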

How the data were processed

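Per the file headers, the deposited table gives estimated counts and FPKM for each gene and library, both made by the authors. The estimated counts are whole numbers without normalization, so rounding changed 0 values. The authors' FPKM values are scaled for transcript length and depth and stand at 0.0001 where a gene had no counts. The submitters' processing notes name Bowtie 0.12.2, mm8 and hg38 without saying what each was used for. Coordinates are on GRCh38, where 72.7% of the 58394 identifiers found in GENCODE release 29 had the same start and end. Which counter, annotation and strand setting was used is not given in the sources used here. The design text describes the RNA as retinal, for which the labels have no counterpart.

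The members and the 7 gene lists were chosen with earlier results of these data known. Genes with at least 1 FPKM in at least 3 libraries (12830) were tested on the counts with edgeR 4.0.16 (R 4.3.3, TMM scaling, quasi-likelihood F test, all 9 libraries, 1 mean per group, 2-sided, Benjamini-Hochberg at 0.05). SE is the size of the log2 change over the square root of F. The procedure was also run on counts simulated from the means, library sizes and dispersions of the edgeR fit to these data, and its outcome there is not given here. From each list up to 4 genes are named, those with the smallest larger-of-both adjusted p over the siRNA contrasts, and for members called with both siRNAs the 2 most similar genes. A gene that this rule takes is not reported here. Alternatives were DESeq2 1.42.0, RLE or upper quartile scaling, other filters, limma 3.58.1 on log2(FPKM + 1) or log2(FPKM + 0.1), only the groups compared, a replicate block and leaving out each library. Counts divided by 4 and the lists under other settings were added after the data were seen.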

Additional observations from a re-analysis of the deposited data

Results flagged for a closer look

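For 4 of the 8 tested genes the effect of siRNA 1 differed from that of siRNA 2 by the direct test. The effect of siRNA 1 minus that of siRNA 2, on the log2 scale, was -2.92 for CDKN2B, -2.49 for CDKN1C, 0.71 for CDKN2A and 0.18 for CCND1 (edgeR adjusted p = 6.94e-05, 6.94e-05, 0.0223 and 0.0309). CDKN2B fell after siRNA 1 and did not pass after siRNA 2. CDKN1C changed in opposite directions, although its rise after siRNA 2 lost its call in 5 of 18 alternatives. For CDKN2A the difference was lost without siRNA 1 replicate 2 (0.67) or siRNA 2 replicate 3 (0.55). The difference in CCND1 was lost in 9 of 19 alternatives. No group has more than 3 libraries, so single libraries were not screened for outlying values.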

How the results depend on the processing

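Of 24 member results (8 genes, 3 comparisons), 11 kept their direction and their side of the threshold in every alternative that could test them, out of 19 settings. With a filter of at least 5 FPKM, which leaves CCND1, CDK4 and CDKN1B, 2 of these genes were called after siRNA 1, 2 after siRNA 2, and 0 between the siRNAs. With no filter 2 genes were called after siRNA 2 in place of 4. When 1 library was left out, 2 to 4 genes were called after siRNA 2, 2 to 4 between the siRNAs, and 5 after siRNA 1 in each case. With the replicate block 5 genes were called after siRNA 1, 4 after siRNA 2 (CDKN2A gained and RB1 lost) and 4 between the siRNAs, and 3 in 1 direction with both siRNAs. The block changed no other member call. Among the listed genes, against control, the block took the siRNA 1 calls of CDK7 (0.32), SKP2 (0.36), FBXW7 (0.34), RRM1 (0.23), MTAP (1.04) and CENPF (0.21) and the siRNA 2 call of FBXO31 (-0.28), and added CDKN1A after siRNA 1 (-0.41), so that 0 proliferation markers were higher and 2 of the other inhibitors lower after siRNA 1. The libraries share only a number: the deviations of same-numbered libraries correlated between -0.0688 and 0.0393 over 9 pairs.

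Directions turned only in results that did not pass. When 1 library was left out, CCND3 ranged from -0.45 to 0.58 after siRNA 1, from -0.61 to 0.20 after siRNA 2 and from -0.13 to 0.59 between them. CDK4 ranged from -0.045 to 0.21 after siRNA 2 and from -0.010 to 0.20 between the siRNAs. CDKN2B ranged from -0.021 to 0.22 after siRNA 2, and RB1 from -0.054 to 0.17 between the siRNAs. Upper quartile scaling gave RB1 -0.0032 between the siRNAs. It also moved the median of all genes after siRNA 2 from 0.02 to 0.12. The causes were not tested. Depth limits CCND2 and CDK6 in every group, and CDKN1C and CDKN2B after siRNA 1.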
